A study of Gallus gallus with 21 samples.

Results

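The sex difference of gene expression in the heart was set against that in the brain of the same chicken embryos. The comparison used 14 of the 21 arrays of the series, which were chosen by their labelled tissue: 3 male hearts, 4 female hearts, 3 male brains and 4 female brains. All embryos were White Leghorn fowl after 18 days of incubation, untreated, and were sexed by the look of their gonads and Müllerian ducts. The heart sample was a piece of the apical part, and the brain sample was what remained around the diencephalon once the cerebral hemispheres, the cerebellum and the optic lobes had been taken away, so neither stands for the whole organ. Heart and brain RNA were prepared with the same kit. The arrays of both tissues carry the numbers 16, 19 and 21 for males and 2, 10, 12 and 20 for females. A heart and a brain array with the same number were taken to come from 1 embryo. The heart and brain of another male had failed quality control in the study and have no arrays.

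In birds the male carries a pair of Z chromosomes and the female 1 Z and 1 W, so most Z-linked genes are present in a double dose in males. Mammals silence an X chromosome to equalize such a dose, whereas birds have no known mechanism that acts on the whole Z chromosome, and single Z genes differ in how far the male level exceeds the female level. The heart and the diencephalon express largely different programmes, contraction and fuel oxidation in heart and neural signalling and hormone control in diencephalon, and a comparison of the 2 tissues in the same embryos asks whether the male excess of a Z gene belongs to the gene or depends on the tissue.

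Values are log2 probe set intensities, so a difference of 1 means a doubling. A probe set is a group of short probes for 1 transcript. Of 19874 probe sets in the table, 13001 had values in both tissues: 489 were Z-linked (349 genes), 10221 autosomal (6839 genes), 21 W-linked (12 genes) and 2270 had no single placed gene. A further 66 Z-linked probe sets had values in heart only and 116 in brain only. The sex difference of a tissue is the male mean minus the female mean, and the heart-minus-brain difference is the sex difference of heart minus that of brain, so it is negative where the male excess was smaller in heart. Adjusted p-values are from limma over all probe sets, and a probe set was called where the ratio exceeded 1.5 and the adjusted p was under 0.05. Arrays of 1 tissue correlated at 0.955 to 0.980 in heart and 0.959 to 0.982 in brain. In the gene lists, a measured gene is one with values in both tissues. All 6 measured heart muscle genes were higher in every heart array than in any brain array, and all 5 measured neuronal genes were higher in every brain array. These genes thus followed the labels of tissue. Of 6 measured glial and myelin genes, 4 were higher in every brain array. The myelin gene MOG was higher in every heart array, at 9.23 to 10.75 against 5.65 to 6.89 in brain, and the cause was not tested. No probe set with values had a higher sex mean under 4.0, and values under that level were not told apart from background.

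Few sex differences were called as dependent on the tissue. The heart-minus-brain difference was called for 7 of 13001 probe sets (0.0538%), of which 1 was Z-linked, 1 W-linked, 5 had no single placed gene and none was autosomal. With the embryo as a fixed term 16 were called, 8 of them autosomal. At an unadjusted p under 0.05 there were 985 probe sets (7.58%). Among Z-linked probe sets 65 (13.3%) had such a p, 18 with a larger and 47 with a smaller male excess in heart, and among autosomal ones 747 (7.31%), 435 above 0 and 312 below 0. In place of 985, the count ran from 600 without embryo 16 to 1578 without embryo 19 when an embryo was left out. It was 1380 with the embryo as a fixed term and 1675 with array weights, so it depended on the embryos and on the fit. The Z-linked and autosomal shares are from the fit with no embryo term only. The precision was limited by the number of arrays: the median half-width of the 95% interval of a heart-minus-brain difference was 0.57 over Z-linked probe sets. That interval lay within a 1.5-fold ratio in either direction for 100 Z-linked probe sets (20.4%) and within a 2-fold ratio for 310 (63.4%), so for most single genes a moderate dependence on tissue was not detectable with these arrays.

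GLDC was the only Z-linked gene called. It encodes glycine decarboxylase, the mitochondrial enzyme that starts the breakdown of glycine. Its log2 values were 2.24, 2.79 and 2.55 in male hearts, against 5.23, 5.05, 4.57 and 5.15 in female hearts. Male brains had 8.89, 9.18 and 8.82 and female brains 8.88, 8.56, 8.89 and 8.70. The sexes were thus apart in heart, with every female above every male, and overlapped in brain, where the level was far higher. The sex difference was -2.47 in heart (standard error 0.18, adjusted p = 9.13e-08) and 0.21 in brain (standard error 0.18, adjusted p = 0.771), and the heart-minus-brain difference was -2.68 (standard error 0.26, adjusted p = 3.28e-05). GLDC was 1 of 3 Z-linked probe sets called higher in females in heart. All male hearts lay under 4.0, so the heart level of males has only an upper bound, and the female level was at least 2.00-fold higher when males are put at 4.0. With all values under 4.0 set to 4.0 before the fit, the sex difference in heart remained past the threshold (-1.0, adjusted p = 0.0020), while the heart-minus-brain difference was -1.21 with an adjusted p of 0.0891 and was no longer called. In bulk tissue, fewer cells of a type and less RNA per cell cannot be told apart.

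Of the 5 measured genes on either side in gene order, none had a called heart-minus-brain difference, and KDM4C, a histone demethylase gene that follows GLDC, had a sex difference of -0.17 in heart and 0.03 in brain. UHRF2, a ubiquitin ligase gene just before it, had 0.05 in heart and -0.26 in brain. PTPRD, a receptor tyrosine phosphatase gene next after KDM4C, had -0.43 in heart (adjusted p = 0.534) and 0.13 in brain (adjusted p = 0.912), with a heart-minus-brain difference of -0.56 (adjusted p = 0.695). The unnamed gene LOC100858941, a further step before UHRF2, was the Z-linked member with the largest positive heart-minus-brain difference among the genes named here. It had log2 values of 9.87, 9.97 and 9.94 in male hearts, against 9.96, 10.73, 9.39 and 10.16 in female hearts. The brain values were 6.19, 6.88 and 5.50 in males, against 7.16, 8.25, 8.76 and 8.25 in females. The sexes overlapped in heart and were apart in brain, with females higher, and the sex difference was -0.14 in heart (adjusted p = 0.961) and -1.92 in brain (adjusted p = 0.00337). Its heart-minus-brain difference of 1.78 (95% interval 0.75 to 2.81) had an adjusted p of 0.472 and was not called.

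**Figure D1:**
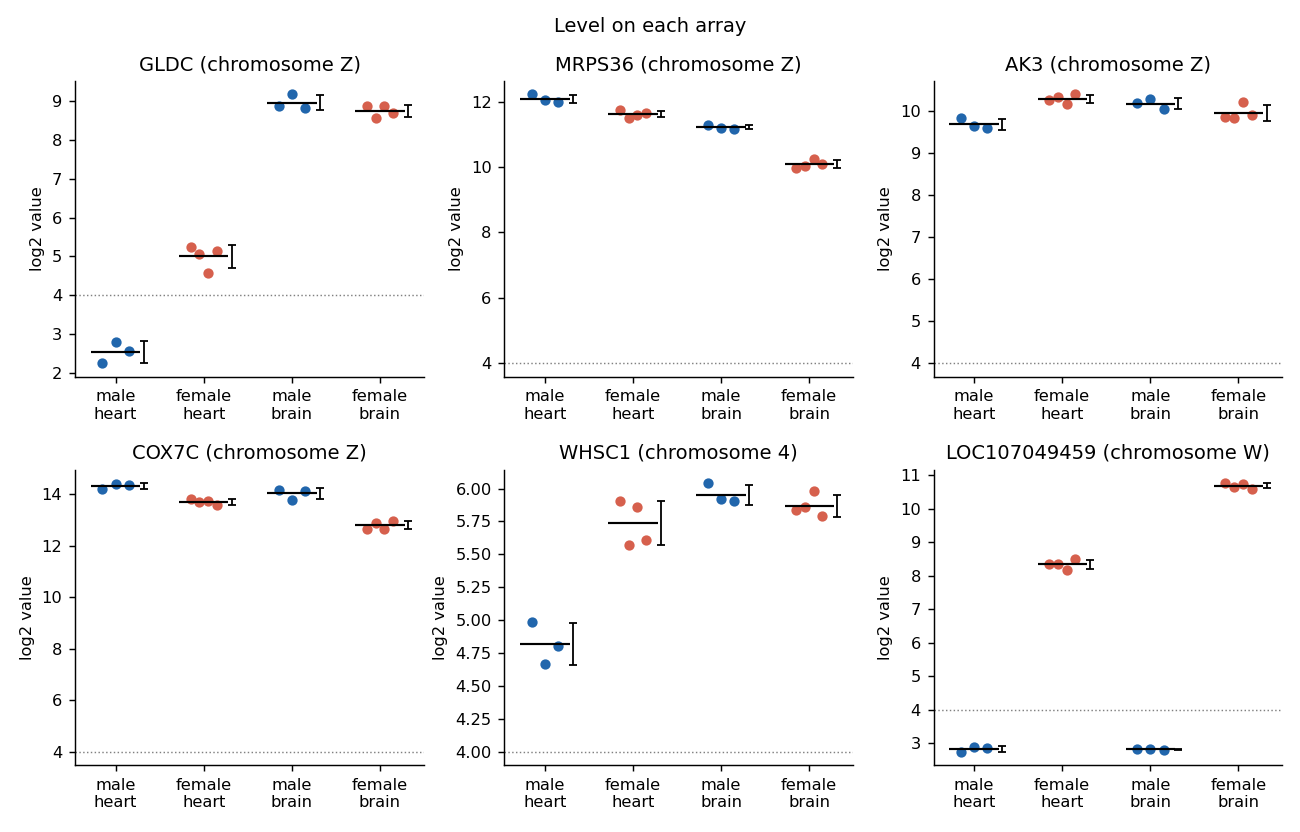
Log2 value of 6 genes on each array of male heart, female heart, male brain and female brain. Points are arrays, horizontal bars are means, the error bars are SD (n = 3 males, n = 4 females) and the dotted line marks a log2 value of 4. GLDC splits the sexes in heart and not in brain, while MRPS36 and COX7C are higher in males in both tissues with a smaller gap in heart.

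The other called probe sets were seen in females only. LOC107049459, an unnamed W-linked gene, had log2 values of 2.74, 2.89 and 2.87 in male hearts, against 8.36, 8.35, 8.17 and 8.50 in female hearts. In brain, males had 2.82, 2.82 and 2.81, against 10.76, 10.64, 10.73 and 10.59 in females. Males lay at the background level in both tissues, so the heart-minus-brain difference of 2.36 (95% interval 2.07 to 2.64, adjusted p = 2.64e-08) is close to the gap between female brain and female heart. Of the 5 called probe sets with no single placed gene, Gga.10138.2.S1_a_at and Gga.10138.3.S1_at share a cluster number with the probe set of LOC107049459 and had heart-minus-brain differences of 3.37 and 3.72. Gga.14654.1.S1_at and GgaAffx.21598.1.S1_s_at had 1.77 and 1.32, so female brain again exceeded female heart. Gga.17352.1.S1_at ran the other way, with -1.17 (adjusted p = 0.00806), and averaged 9.32 in female hearts and 8.22 in female brains. That call was lost in 5 of 16 alternatives, among them those without embryo 10, 20 or 19, where the difference was -1.07, -1.14 and -1.12. Males lay under 4.0 on every array for these 5 probe sets. With values under 4.0 set to 4.0, the difference was 2.34 for LOC107049459, 2.62 and 3.14 for the probe sets of the shared cluster, 1.60 for Gga.14654.1.S1_at, 1.22 for GgaAffx.21598.1.S1_s_at and -1.10 for Gga.17352.1.S1_at, and all were called.

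Named W-linked genes of the W list had no called heart-minus-brain difference. All 4 measured genes of the W list were higher in females in both tissues, which 0.369% of all probe sets were in heart and 0.369% in brain. HINTW, the W copy of a nucleotide hydrolase gene, had log2 values of 2.39, 2.57 and 2.39 in male hearts, against 11.92, 12.88, 13.05 and 11.97 in female hearts. In brain it had 2.37, 2.36 and 2.22 in males and 12.33, 13.64, 13.50 and 12.30 in females. The sexes were far apart in both tissues, embryos 10 and 12 were the higher females in both, and the heart-minus-brain difference was 0.62 (95% interval -0.57 to 1.80). That interval ignores the shared embryo, and each female was higher in brain than in heart. With the embryo as a fixed term, the standard error was 0.20 in place of 0.56 (unadjusted p = 0.009, adjusted p = 0.295), and the difference was still not called. SPIN1L, the W copy of a chromatin reader gene, differed by -4.07 in heart and -5.42 in brain (heart-minus-brain difference 1.35, adjusted p = 0.605). Over all 21 W-linked probe sets, 15 were called higher in females in both tissues. The male mean was higher in both tissues for 5, of which 2 were called higher in males in heart and 1 in brain. Males carry no W, and whether these probe sets are rightly placed or also detect other transcripts was not tested.

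Most Z-linked genes were higher in males in both tissues. The male level exceeded the female level in heart and in brain for 404 of 489 Z-linked probe sets (82.6%), against 25.6% of autosomal ones. In heart 154 Z-linked probe sets (31.5%) were called higher in males, against 1.48% of all probe sets, and in brain 164 (33.5%), against 1.44%. Of these, 118 were called in both tissues, 36 in heart only and 46 in brain only, and no Z-linked probe set was called in opposite directions. Taken by gene, with the probe set of the highest level for each, 94 of 349 genes were called in both tissues, 22 in heart only, 35 in brain only and 198 in neither.

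A call in 1 tissue alone seldom meant that the other tissue showed no male excess. Of the 36 called in heart only, 35 also had a higher male mean in brain, and of the 46 called in brain only, 44 had a higher male mean in heart. A sex difference under 1.2-fold in the other tissue was found for 5 of the 36 and for 7 of the 46. The probe sets called in heart only had medians of 0.97 in heart and 0.64 in brain, and those called in brain only had 0.51 in heart and 0.91 in brain. Since these classes were formed with the same values, the medians are a description and no test.

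The sizes of the Z-linked differences agreed in part. Across the 489 Z-linked probe sets the heart and brain differences correlated at Pearson's r = 0.548 and Spearman's rho = 0.572, and across the 10221 autosomal ones at 0.080 and 0.027. Both tissues came from the same embryos and all arrays were normalized together, so the tissues are not independent, and probe sets are not replicates. Without embryo 19 the Pearson value over Z was 0.440, and over Z-linked probe sets with a mean level of at least 8 in both tissues it was 0.686. The standard deviation of the heart-minus-brain difference was 0.45 over Z-linked and 0.40 over autosomal probe sets.

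**Figure D2:**
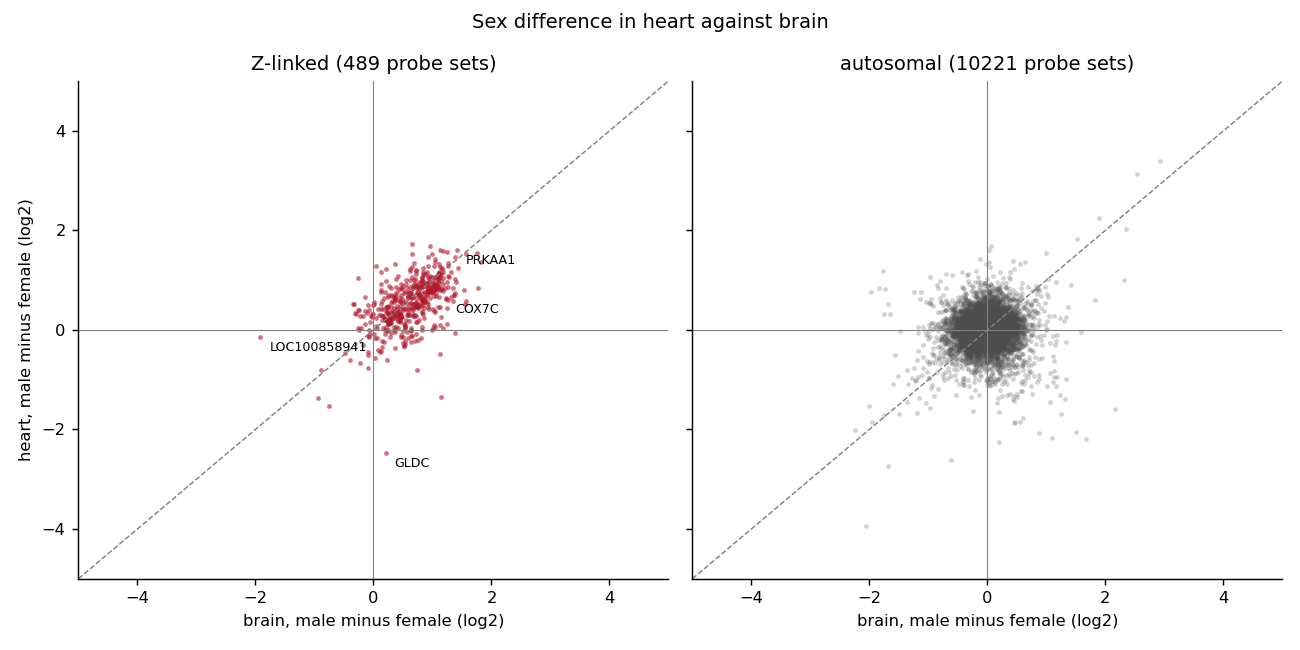
Male minus female log2 difference in heart (vertical) against that in brain (horizontal), for 489 Z-linked probe sets (left) and 10221 autosomal ones (right), with a dashed line where both are equal. The Z-linked cloud lies above 0 on both axes, while the autosomal cloud is centred on 0. GLDC, at -2.47 in heart and 0.21 in brain, stands apart from the other Z-linked points.

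Z-linked genes with the largest male excess in both tissues were chosen by the smaller of their heart and brain differences, so their values are a description. These were PRKAA1, TTC33, ARSK, TPGS2, RAD1 and AK6, and their heart-minus-brain differences lay between -0.45 and 0.32, each with a 95% interval that includes 0 and with the female brains of PRKAA1 under 4.0. PRKAA1 encodes the catalytic alpha subunit of AMP-activated kinase, a sensor of cellular energy. It had log2 values of 5.51, 5.86 and 6.05 in male hearts, against 4.04, 3.95, 4.60 and 4.18 in female hearts. Male brains had 5.20, 5.19 and 4.80, against 3.58, 3.58, 3.94 and 3.51 in female brains. Males and females were apart in both tissues, with differences of 1.61 in heart (3.06-fold, adjusted p = 6.77e-05) and 1.41 in brain (adjusted p = 0.000245). All female brains lay under 4.0, so the brain level of males was at least 2.09-fold higher with females put at 4.0. With values under 4.0 set to 4.0 before the fit, the difference was 1.60 in heart and 1.06 in brain, and the heart-minus-brain difference 0.54 in place of 0.20.

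RAD1, a subunit of the clamp that senses DNA damage, was 2.97-fold higher in male heart and 2.37-fold higher in male brain. AK6, a nuclear adenylate kinase, was 2.36-fold higher in male heart and 2.69-fold in male brain, while another probe set of the gene, at a lower level, differed by 0.51 in heart and 1.55 in brain (heart-minus-brain difference -1.04, adjusted p = 0.683). TPGS2, part of the complex that adds glutamate chains to tubulin, was 2.58-fold higher in male heart and 3.52-fold in male brain, the largest gap between tissues in the group (-0.45, 95% interval -1.01 to 0.11). The calls of these 3 genes and of PRKAA1 held in both tissues under every alternative in which the gene was tested. ARSK, a sulfatase gene, was 2.78-fold and TTC33, a gene of a protein with tetratricopeptide repeats, 2.90-fold higher in male heart, and their calls were lost in some alternatives, 2 of 15 in heart and 4 of 15 in brain for ARSK and 3 of 15 in heart and 2 of 15 in brain for TTC33.

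Over the whole of Z the male excess was slightly smaller in heart. The median Z-linked difference was 0.56 in heart (1.48-fold) and 0.65 in brain (1.57-fold), and the median heart-minus-brain difference was -0.08, while the autosomal median was 0.05. For a view by array, the mean of all Z-linked probe sets less that of all autosomal ones was taken on each array. It was 0.14, 0.13 and 0.20 in male hearts, against -0.38, -0.32, -0.36 and -0.36 in female hearts. In brain it was 0.14, 0.16 and 0.14 in males, against -0.50, -0.50, -0.45 and -0.53 in females. Male values overlapped between the tissues, while every female heart was above every female brain. Within embryos, the heart value less the brain value was 0.00, -0.02 and 0.06 in males 16, 19 and 21, against 0.11, 0.18, 0.08 and 0.16 in females 2, 10, 12 and 20, so the sexes did not overlap. These values also hold any difference between the tissues in the level of Z-linked genes, so the smaller excess cannot be assigned to 1 sex. As a summary over the chosen members this carries no test. The median heart-minus-brain difference over Z was -0.05 without embryo 10. Leaving out each embryo in turn gave a standard error of 0.047 for the median of -0.08.

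**Figure D3:**
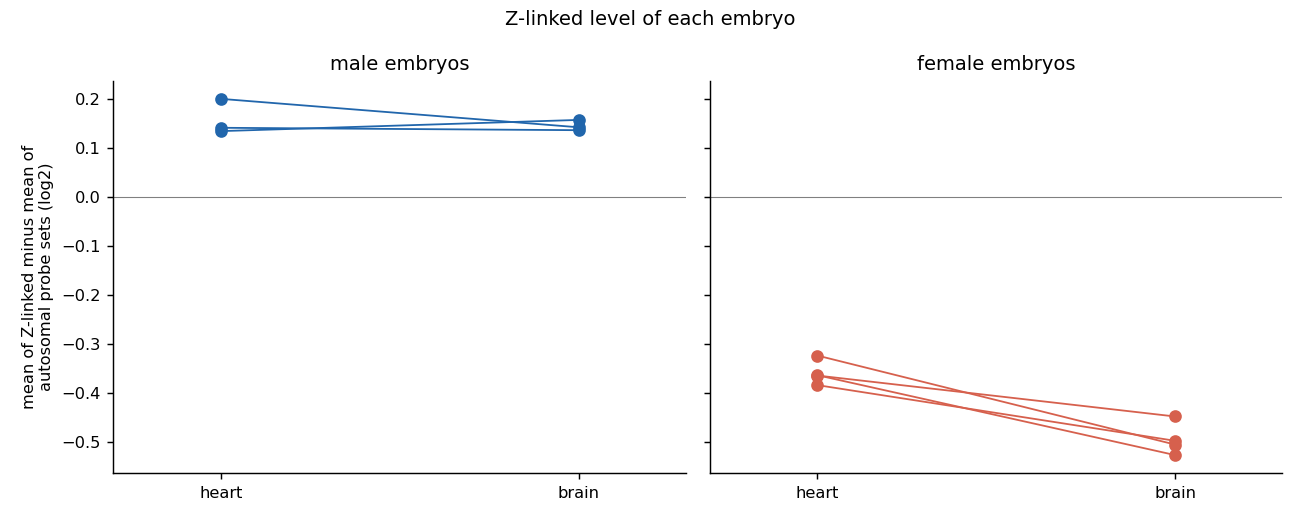
Mean log2 value of Z-linked probe sets less that of autosomal probe sets in heart and brain, for 3 male embryos (left) and 4 female embryos (right). Each line joins the tissues of 1 embryo. All 4 female lines are lower in brain than in heart, and male values lie between 0.13 and 0.20 in both tissues.

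A smaller excess in heart was seen at low and at high levels. In the third of Z-linked probe sets with the lowest level the medians were 0.59 in heart and 0.66 in brain, and in the third with the highest level 0.48 in heart and 0.64 in brain. Where the heart level exceeded the brain level by over 1, the median heart-minus-brain difference was -0.04 (116 probe sets), and where the brain level exceeded the heart level by over 1 it was -0.11 (72 probe sets). Along the gene order of Z, in 10 stretches of 48 or 49 probe sets, medians ran from 0.31 to 0.66 in heart and from 0.32 to 0.75 in brain. The lowest stretch was the fifth in both tissues, from TMEM171 to MAMDC2, which holds GLDC, with 0.31 in heart and 0.32 in brain. The median heart-minus-brain difference was below 0 in all 10 stretches, from -0.16 to 0.00.

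**Figure D4:**
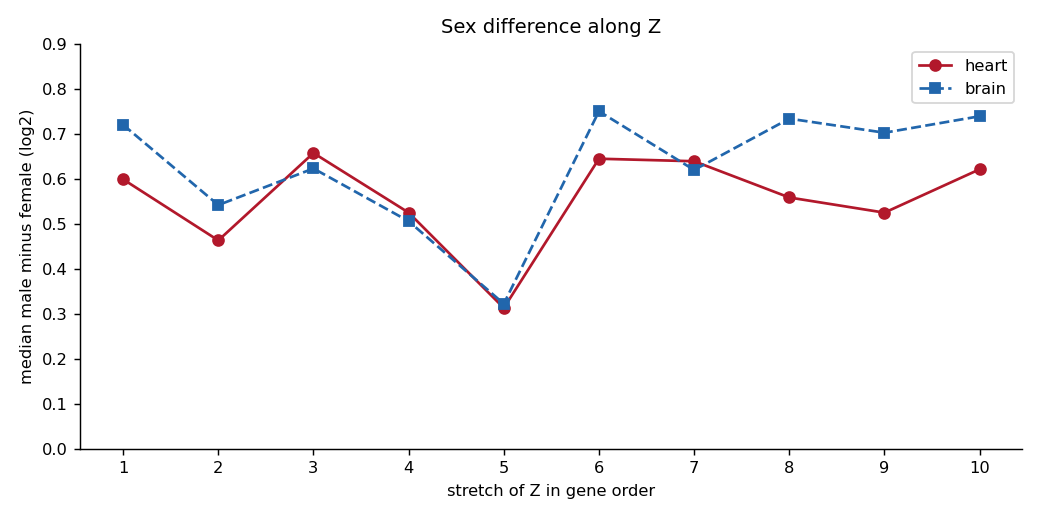
Median male minus female log2 difference of Z-linked probe sets in heart (circles) and brain (squares) over 10 consecutive stretches of Z in gene order, with 48 or 49 probe sets each. Both tissues dip in the fifth stretch, to 0.31 in heart and 0.32 in brain.

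After GLDC, the Z-linked gene with the lowest unadjusted p among those named for a smaller male excess in heart was MRPS36, which encodes a small protein of mitochondria. It had log2 values of 12.22, 12.04 and 11.99 in male hearts, against 11.73, 11.51, 11.59 and 11.65 in female hearts. The brain values were 11.29, 11.21 and 11.16 in males, against 9.97, 10.02, 10.26 and 10.08 in females. Males were above all females in both tissues, by 0.47 in heart (1.38-fold) and 1.14 in brain (2.20-fold), and the heart-minus-brain difference was -0.67 (95% interval -0.97 to -0.36, unadjusted p = 0.000234, adjusted p = 0.203).

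A list of Z-linked genes of energy metabolism and hormone reception had 13 measured members, of which 6 were called higher in males in heart (46.2%, against 31.5% of all Z-linked probe sets) and 7 in brain (53.8%, against 33.5%). This and the other Z lists count genes with 1 probe set each, while the Z-linked shares beside them count all probe sets. Taken by gene, 94 of 349 Z-linked genes were called in both tissues, 22 in heart only and 35 in brain only. The median difference of the list was 0.55 in heart and 0.71 in brain, near the 0.56 and 0.65 of all Z-linked probe sets, beside 0.03 and -0.01 over all 7209 genes with a symbol. No member of the list had a called heart-minus-brain difference, and 4 had an unadjusted p under 0.05 (30.8%, against 13.3% of Z-linked probe sets), all below 0: COX7C, OXCT1, NNT and NDUFAF2. COX7C, a subunit of cytochrome c oxidase, had log2 values of 14.20, 14.40 and 14.36 in male hearts, against 13.81, 13.68, 13.73 and 13.57 in female hearts. In brain, males had 14.16, 13.79 and 14.13, against 12.66, 12.89, 12.65 and 12.95 in females. Males were above females in both tissues, by 0.62 in heart and 1.23 in brain, and the heart-minus-brain difference was -0.61 (adjusted p = 0.526).

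OXCT1, the enzyme that lets heart and brain use ketone bodies, had a sex difference of -0.02 in heart (adjusted p = 0.991) and 0.51 in brain (1.42-fold, adjusted p = 0.0195). NNT, which makes NADPH in mitochondria, had 0.06 in heart (adjusted p = 0.939) and 0.53 in brain (1.44-fold, adjusted p = 0.019). Both missed the fold threshold in brain. Male and female hearts lay between 13.73 and 13.87 for OXCT1 and between 13.42 and 13.66 for NNT, near the levels of COX7C, and the part of the upper range of the array was not tested. Other probe sets of these genes, at lower levels, gave heart-minus-brain differences of 0.60 for COX7C, -0.65, -0.27 and 0.02 for OXCT1 and -0.21 for NNT, none called. In the list of autosomal oxidative phosphorylation, 15 genes were measured and none was called in either tissue. For the heart-minus-brain difference 2 had an unadjusted p under 0.05, NDUFA8 and COX6C, both below 0, against 7.31% of autosomal probe sets. The median heart-minus-brain difference of the list was -0.11, beside 0.05 over all autosomal probe sets.

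The remaining Z-linked genes named by the rule for a smaller male excess in heart were DNAJC21, AK3, VPS13A, FUT10 and HAPLN1. AK3, a GTP-dependent adenylate kinase of the mitochondrial matrix, had log2 values of 9.84, 9.64 and 9.60 in male hearts, against 10.26, 10.34, 10.17 and 10.40 in female hearts. In brain it had 10.20, 10.30 and 10.05 in males and 9.86, 9.83, 10.23 and 9.90 in females. Every female heart was above every male heart, and the sexes overlapped in brain. The sex difference was -0.60 in heart (1.52-fold, adjusted p = 0.0259) and 0.23 in brain (adjusted p = 0.623), and the heart-minus-brain difference of -0.83 was not called (adjusted p = 0.307). Besides GLDC and AK3, the only other Z-linked probe set called higher in females in heart was that of ZFR2, a gene of a zinc finger RNA-binding protein, with -1.38 in heart (adjusted p = 0.000606) and -0.94 in brain (adjusted p = 0.0193). It was named after its values were seen, as the only Z-linked probe set called higher in females in both tissues.

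VPS13A, a gene of a lipid transfer protein, differed by -0.06 in heart (adjusted p = 0.986) and 1.38 in brain (2.60-fold, adjusted p = 0.0179), with an unadjusted p of 0.0032 for the heart-minus-brain difference. Its hearts overlapped between the sexes, with 6.32, 5.16 and 5.85 in males and 5.32, 5.96, 6.29 and 5.78 in females, and its brains did not, with 5.96, 5.05 and 6.26 in males and 3.93, 4.23, 4.69 and 4.67 in females. HAPLN1, the link protein that holds the matrix around neurons and in the developing heart together, differed by 0.06 in heart and 1.04 in brain (2.05-fold, adjusted p = 0.0291). FUT10, a gene of the fucosyltransferase family, differed by 0.03 in heart and 1.01 in brain (2.02-fold, adjusted p = 0.0229). DNAJC21, a co-chaperone of ribosome assembly, differed by -0.23 in heart and 0.53 in brain (adjusted p = 0.0302, under the fold threshold). The heart-minus-brain differences of these 4 genes ran from -1.44 to -0.76 and none was called.

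A larger male excess in heart was seen for HEMGN, GAK, SELENOP1 and PAM, again with no call for the heart-minus-brain difference. HEMGN, a nuclear protein of blood-forming cells, had log2 values of 6.55, 7.50 and 7.90 in male hearts, against 5.35, 6.31, 6.25 and 6.24 in female hearts. In brain it had 3.87, 4.01 and 4.28 in males and 4.19, 3.78, 4.09 and 3.98 in females, around the background level. The sexes were apart in heart, by 1.28 (2.42-fold, adjusted p = 0.0249), and overlapped in brain. The 5 measured blood cell genes, HBA1, HBAD, CSF1R, CD74 and SPI1, had sex differences of -0.46 to 0.15 in heart and -0.22 to 0.30 in brain, and none was called. GAK, a kinase of clathrin uncoating, was higher in males by 1.58-fold in heart (adjusted p = 0.00456) and 1.19-fold in brain (adjusted p = 0.501).

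SELENOP1, the carrier of selenium in blood plasma, was a Z-linked gene with no called male excess in either tissue. Its log2 values were 13.13, 13.26 and 13.34 in male hearts, against 12.67, 13.04, 12.79 and 12.89 in female hearts. Male brains had 12.29, 12.82 and 12.30 and female brains 12.59, 12.68, 12.79 and 12.86. Males were higher in heart with no overlap and the sexes overlapped in brain, and the heart-minus-brain difference was 0.66 (95% interval 0.21 to 1.10, adjusted p = 0.596). The other 3 probe sets of the gene gave 0.62, 0.79 and 0.46. PAM, which amidates peptide hormones, differed by 0.76 in heart and 0.13 in brain (95% interval of the heart-minus-brain difference -0.10 to 1.35).

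**Figure D5:**
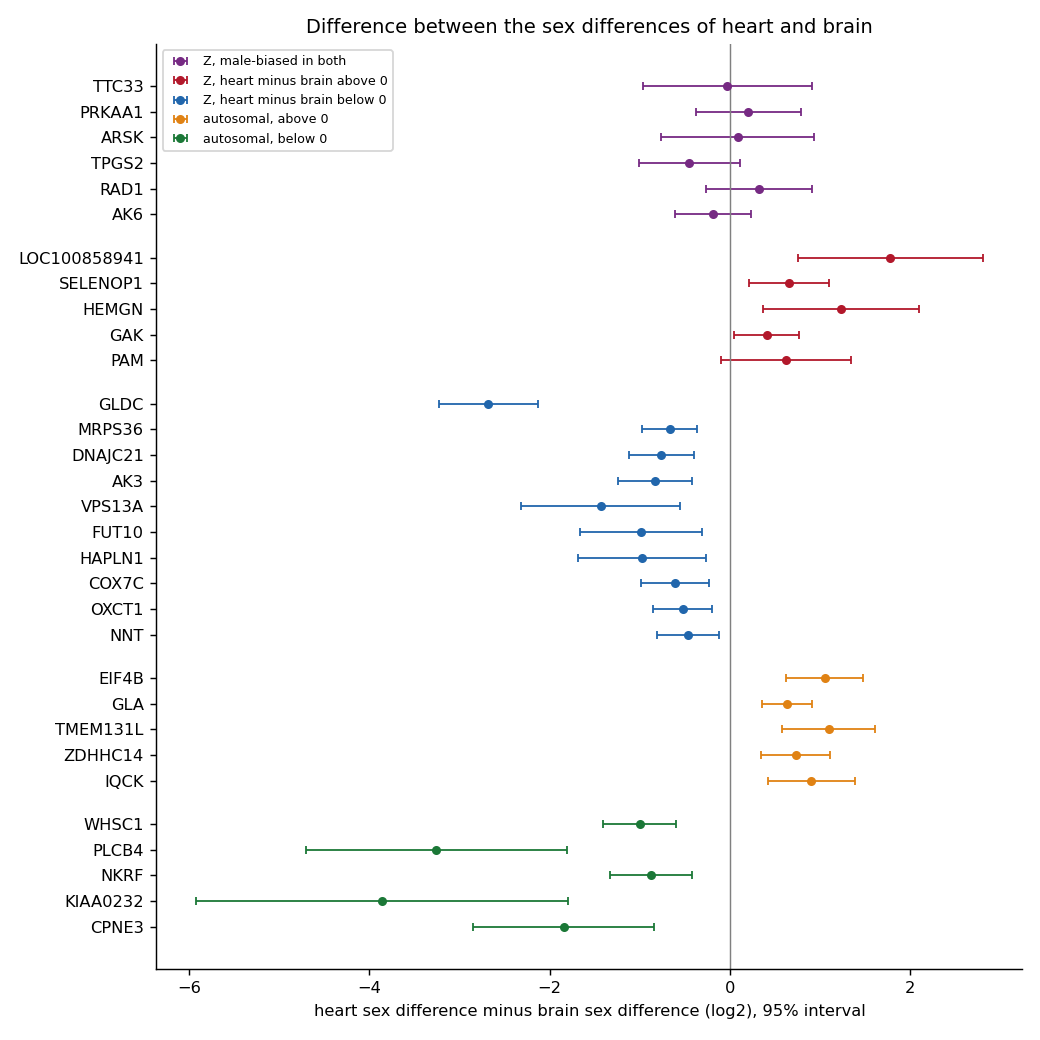
Sex difference of heart minus that of brain (log2) with its 95% interval for the named Z-linked and autosomal genes, in 5 groups by colour. Intervals of the 6 genes male-biased in both tissues include 0. The GLDC interval runs from -3.23 to -2.13, with all male hearts under 4.0.

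Z-linked genes that have a surviving copy on W, many of them regulators of transcription, translation and protein turnover, were often higher in males in both tissues. Of 14 measured Z-linked members, 7 were called higher in males in heart (against 31.5% of all Z-linked probe sets and 1.48% of all probe sets) and 9 in brain (64.3%, against 33.5% and 1.44%). Their medians were 0.66 in heart and 0.82 in brain, beside 0.56 and 0.65 over all Z-linked probe sets, and none had an unadjusted p under 0.05 for the heart-minus-brain difference, which 13.3% of Z-linked probe sets had. NEDD4, a ubiquitin ligase gene also written into the list, is placed on chromosome 10 and was left out of these counts. CHD1, a chromatin remodeller, differed by 0.88 in heart (adjusted p = 0.0159) and 1.12 in brain (adjusted p = 0.00162), and SPIN1, the Z partner of SPIN1L, by 0.91 in heart (adjusted p = 0.00586) and 1.05 in brain (adjusted p = 0.00144). VCP, an ATPase that extracts proteins for degradation, differed by 0.50 in heart (adjusted p = 0.0412) and 0.84 in brain (adjusted p = 0.000918).

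Of 9 measured Z-linked genes of neurons and glia, 0 were called in heart and 0 in brain, against 31.5% and 33.5% of all Z-linked probe sets called higher in males. Their median difference was -0.44 in heart and 0.13 in brain, beside 0.56 and 0.65 over Z. For the heart-minus-brain difference 2 had an unadjusted p under 0.05 (22.2%, against 13.3% of Z-linked probe sets). MAP1B, a microtubule protein of axons, had 4.85, 3.79 and 3.74 in male hearts and 4.65, 5.00, 5.24 and 4.81 in female hearts, which overlap, and a heart-minus-brain difference of -1.54 (adjusted p = 0.622). CAMK4, a calcium-dependent kinase, had 9.0, 9.31 and 9.02 in male hearts, against 7.41, 8.21, 7.70 and 8.23 in female hearts, with no overlap and an adjusted p of 0.0591 for the sex difference of 1.22. In brain it had 8.62, 8.11 and 9.17 in males and 9.20, 8.42, 7.90 and 8.14 in females, and the heart-minus-brain difference was 1.0 (adjusted p = 0.622), while another probe set of the gene gave -0.15. Of 10 measured genes around DMRT1, the Z-linked gene of testis determination, only AK3 was called, in heart and higher in females, and the medians were -0.12 in heart and -0.03 in brain, beside 0.56 and 0.65 over all Z-linked probe sets.

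Called autosomal sex differences were few, and hardly any was called in both tissues. In heart 14 of 10221 autosomal probe sets (0.137%) were called higher in males and 14 in females, and in brain 5 (0.0489%) and 14. The direction was the same in brain for 12 of the 14 called higher in males in heart and 8 of the 14 called higher in females. It was the same in heart for 5 of the 5 called higher in males in brain and 10 of the 14 called higher in females. Only 1 was called higher in males in both tissues, PSMD5, an assembly chaperone of the proteasome, by 0.68 in heart (adjusted p = 0.000972) and 0.91 in brain (adjusted p = 5e-05). Only 1 was called higher in females in both, UBAC1, a subunit of a ubiquitin ligase, by -1.01 in heart (adjusted p = 0.0206) and -1.20 in brain (adjusted p = 0.00587). Both were named after their values were seen, and both lie on chromosome 17. Males and females did not overlap in either tissue for PSMD5, with 8.68 to 8.75 in male hearts and 7.89 to 8.19 in female hearts, and 8.97 to 9.07 in male brains and 7.95 to 8.33 in female brains.

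Of the 14 autosomal probe sets called higher in males in heart, 10 differed by less than 1.2-fold in brain and 1 by more than 1.5-fold, and of the 14 called higher in females in heart, 5 differed by less than 1.2-fold in brain and 4 by more than 1.5-fold, in either direction. WHSC1, a histone methyltransferase, had log2 values of 4.99, 4.67 and 4.80 in male hearts, against 5.90, 5.58, 5.86 and 5.61 in female hearts. The brain values were 6.04, 5.92 and 5.90 in males and 5.84, 5.86, 5.98 and 5.79 in females. The hearts did not overlap (-0.92, 1.89-fold, adjusted p = 0.000522) and the brains did (0.09, adjusted p = 0.898). The heart-minus-brain difference of -1.0 (95% interval -1.40 to -0.60) had an adjusted p of 0.0832 and was the autosomal one nearest to a call among named genes. VPS50, a gene of endosome recycling, was higher in males by 1.73-fold in heart (adjusted p = 0.00287) and 1.02-fold in brain. ENTPD4, a nucleotide hydrolase, was higher by 1.07 in male heart and 0.37 in male brain, with a heart-minus-brain difference of 0.70 (95% interval 0.18 to 1.22, adjusted p = 0.605).

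MT3, a metallothionein known from brain, was 3.19-fold higher in male heart, with 7.22, 8.63 and 8.20 in males and 5.75, 6.83, 7.48 and 5.30 in females, which overlap. It averaged 1.04-fold higher in male brain, where all arrays lay between 11.84 and 12.64, and its call in heart was lost in 6 of 15 alternatives. NFIA, a transcription factor of glia, ran the other way: female brain exceeded male brain 1.62-fold (adjusted p = 0.0301), with 9.16, 9.61 and 9.44 in males and 10.11, 10.33, 9.87 and 10.09 in females, and differed by 0.14 in heart. LCORL, a nuclear factor, exceeded male brain 1.62-fold in female brain (adjusted p = 0.0459) and was equal in heart (0.00). Another probe set of LCORL, at a lower level, differed by -0.39 in heart and -0.48 in brain, so the equal heart level rests on 1 probe set. SDHAF1, an assembly factor of succinate dehydrogenase, was 1.53-fold higher in male brain and differed by 0.01 in heart. Its hearts of both sexes lay between 6.355 and 6.39, and its female brains at 6.344, 6.347, 6.352 and 6.858. Whether these nearly constant values are a background level of the probe set was not tested, so its heart difference may not be informative. The calls of NFIA, LCORL and SDHAF1 were lost in 5, 6 and 8 of 15 alternatives.

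The autosomal genes with the lowest p for a larger male excess in heart were EIF4B, GLA, TMEM131L, ZDHHC14 and IQCK, none called. EIF4B, an initiation factor of translation, had log2 values of 9.43, 9.24 and 9.32 in male hearts, against 8.74, 8.74, 8.90 and 9.23 in female hearts. In brain, males had 7.36, 7.64 and 7.33, against 8.16, 8.04, 8.12 and 7.92 in females. Males were higher in heart and females in brain, both with no overlap, and the heart-minus-brain difference was 1.05 (95% interval 0.62 to 1.48, adjusted p = 0.165). GLA, a lysosomal galactosidase, was higher in male heart by 1.41-fold (adjusted p = 0.00659, under the fold threshold) and differed by -0.14 in brain. Its female brains lay between 5.123 and 5.133, and whether this is a background level of the probe set was not tested. TMEM131L, a membrane protein gene, differed by 0.39 in heart and -0.71 in brain (adjusted p = 0.0449), and its heart-minus-brain difference of 1.10 (adjusted p = 0.240) passed the threshold with array weights, at 1.21, and without embryo 19, at 1.34. Its call in brain was lost in 7 of 15 alternatives.

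With the embryo as a fixed term, so that heart and brain were compared within each embryo, 16 probe sets were called in place of 7, and all 7 were among them. The 9 added were 8 autosomal ones, of CPNE3, RSF1, PARP4, CRYZ, KIAA0232, RFC1, PLCB4 and SCAF11, and 1 with no single placed gene. Apart from CPNE3, KIAA0232 and PLCB4, these genes were named after their values were seen. All 8 autosomal ones had a smaller male excess, or a larger female one, in heart. With the embryo as a random block 8 were called, none autosomal. SCAF11, a splicing factor, had 4.14, 2.85 and 4.48 in the hearts of males 16, 19 and 21. Female hearts had 6.18, 5.49, 6.31 and 5.56. The brains of the same males had 4.22, 3.15 and 5.05, against 2.69, 2.29, 2.70 and 2.84 in female brains. All female brains, and male 19 in both tissues, lay under 4.0, so there the level has only an upper bound. Male 19 was the lowest male in both tissues, and the same held for KIAA0232, with 4.19 in its heart and 4.84 in its brain beside 5.39 to 5.77 and 7.38 to 7.64 in the other males. In the fit with array weights, which counts noisier arrays less, the brain array of male 19 had the lowest weight of all 21 arrays, 0.454. Its heart array had 0.952, and the part of array quality in these values was not tested. PLCB4, a phospholipase of signal transduction, differed by -2.16 in heart and 1.09 in brain, and male 19 again had the lowest male values, 2.89 and 7.83. Its heart-minus-brain difference was -3.26, with an adjusted p of 0.246 without the embryo term and 0.0466 with it. Males 19 and 21 lay under 4.0 in heart, and with values under 4.0 set to 4.0 the difference was -1.68 in heart (adjusted p = 0.0748, not called) and -2.77 for heart minus brain, and its call in heart was lost in 5 of 14 alternatives. For RSF1, PARP4, CRYZ, CPNE3, RFC1 and SCAF11 other probe sets of the gene were not called with the embryo term, and their heart-minus-brain differences ran from -1.95 to 0.55.

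CRYZ, a quinone reductase, showed such an embryo pattern among females. It had 2.59, 2.63 and 2.60 in male hearts, against 7.62, 6.56, 7.84 and 4.14 in the hearts of females 2, 10, 12 and 20, and 2.49, 2.56 and 2.54 in male brains, against 5.97, 4.09, 5.79 and 2.47 in the brains of those females. All males and the brain of female 20 lay at background, and female 20 was the lowest female in both tissues. The other 2 probe sets of CRYZ, at higher levels, differed by -0.33 and -0.58 in heart.

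Marker genes of cell types with values in both tissues showed no called sex difference. None of the measured heart muscle (6), neuronal (5), glial and myelin (6), blood cell (5), vessel and connective tissue (13), pituitary and choroid plexus (1) and neuropeptide (1) genes was called in either tissue. The same held for 8 genes of immediate early and stress response, 8 of the hypoxia response and 1 of sex steroid synthesis and response. With values in at least 1 tissue there were 19 heart muscle, 12 neuronal, 10 glial and myelin and 7 neuropeptide genes. Members with values in 1 tissue only were not examined for a sex difference. Over all probe sets 1.48% were called higher in males and 0.369% in females in heart, and 1.44% and 0.369% in brain. At an unadjusted p under 0.05 there were 5 of the 54 in heart and 6 in brain. The share of all probe sets at that p was not taken within a tissue. These 2 counts therefore have no background beside them, and the shares of calls above are at another threshold. The median of the 6 heart muscle genes was -0.03 in heart and -0.55 in brain, with ACTN2, an anchor of actin filaments in muscle, at -0.77 (adjusted p = 0.363), RYR2, the calcium release channel of heart muscle, at -0.53 (adjusted p = 0.372) and ACTC1, cardiac actin, at -1.47 (adjusted p = 0.520) in brain. POSTN, a matrix protein of connective tissue, was at -0.69 in brain (adjusted p = 0.202) and FN1, fibronectin, at -0.41 (adjusted p = 0.195). The 13 vessel and connective tissue genes had a brain median of -0.09 and ran from -0.69 to 0.35. The part of these genes in the brain differences was not tested. VEGFA, the growth factor of blood vessels, had a heart-minus-brain difference of -1.39 (95% interval -2.25 to -0.54, adjusted p = 0.518), with -0.80 in heart and 0.60 in brain. The other probe sets of FN1 had larger sex differences in brain, of -0.62, -1.98 and -1.64. For the last 2 of these the heart-minus-brain difference was 2.74 (adjusted p = 0.526) and 1.97 (adjusted p = 0.605). The counts of marker genes above rest on 1 probe set per gene. A p that misses the threshold does not show that the samples were alike.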

How the data were processed

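Per the labels and the study's methods, RNA was hybridized to Affymetrix chicken arrays, and the authors turned the scans into log2 probe set intensities with GCRMA background adjustment, quantile normalization and median polish in R 2.4.1. They filtered probe sets by level and by MAS5 calls, so a tissue is either blank or complete for a probe set. The deposited log2 values were used unchanged. The labels of some samples name a human array, but all probe set names are of the chicken array. Genes were placed through the array's gene table in the GRCg7b gene table, 16063 probe sets by gene number and 132 by symbol. Of the rest, 85 list several genes, 3592 none and 2 a gene not in that table. No coordinates or sequences are given, since no genome of the files' build was used.

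All 21 arrays, gonads included, were fitted in limma 3.58.1 (R 4.3.3) with sex and tissue as 6 groups and no block, the study's own model, and the contrast of sex differences was adjusted by Benjamini-Hochberg over 13001 probe sets. Sex differences within a tissue were adjusted over all its probe sets, 15282 in heart and 16113 in brain. The fit was tested on simulated data. Python 3.11.15 was used for the summaries. For each gene the probe set of the highest mean over the 14 arrays was taken. Named genes followed a rule: called genes, filled to 5 per class and direction by unadjusted p among genes whose within-embryo values separate the sexes, Z-linked genes biased in both tissues or in 1, autosomal genes called in a tissue, and members of 16 gene lists written from general knowledge. The members, lists and rule were chosen with earlier results of these data known.

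Arrays with the same number come from the same embryo per their titles. Heart and brain deviations of an embryo from their group means correlated at 0.191 to 0.447 over 11710 probe sets, all above 0.1. Each array of a group is a different embryo, so p-values rest on the spread between embryos within groups. The main fit has no embryo term, so its p for a heart-minus-brain difference ignores that both tissues share an embryo. The fit with the embryo as a fixed term takes this pairing into account. Alternatives were the 14 arrays alone, the embryo as a random or fixed block, array weights, centring on autosomes, a minimum level of 6, 1 probe set per gene, a variance trend, the adjusted p alone, leaving out each embryo, and, added after seeing the data, values under 4 set to 4. The number of arrays limits the precision, and arrays give no counting depth.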

Additional observations from a re-analysis of the deposited data

Results flagged for a closer look

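The sex difference of heart differed from that of brain, by the test of the difference itself, for 7 probe sets: GLDC (-2.68), the W-linked LOC107049459 (2.36), and Gga.10138.2.S1_a_at (3.37), Gga.10138.3.S1_at (3.72), Gga.14654.1.S1_at (1.77), Gga.17352.1.S1_at (-1.17) and GgaAffx.21598.1.S1_s_at (1.32), which have no single placed gene. All but GLDC were seen in females only, with males under a log2 value of 4.0 in both tissues. For GLDC, the male hearts lay under 4.0. With values under 4.0 set to 4.0, its heart-minus-brain difference was -1.21 (adjusted p = 0.0891) and was not called.

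In groups of 4 arrays, 1 array stood far from the other 3 in 6 of the 101 groups examined, and chance alone marks about 1 in 20 groups. In hearts these were HEMGN in female 2, at a log2 value of 5.35, and TMEM241, an autosomal membrane protein gene, in female 12, at 4.41. In brains they were PRKAA1 in female 12, at 3.94, FUT10 in female 12, at 6.16, SDHAF1 in female 20, at 6.86, and NNT in female 20, at 10.91. HEMGN was lowest there and TMEM241 too, while the other 4 were high.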

How the results depend on the processing

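The count of called heart-minus-brain differences was 6 to 10 under most alternatives, 2 with 1 probe set per gene, where probe sets with no gene symbol were left out, and 16 with the replicate block as a fixed term, against 7. It ran from 6 to 9 when an embryo was left out. GLDC remained called in 14 of 15 alternatives in which it was tested, the exception being values under 4 set to 4. With a minimum level of 6 it was not tested. The count of male-biased Z-linked probe sets ran from 112 to 162 in heart, against 154, and from 133 to 175 in brain, against 164, and stayed within 1.5 times of the main count in every alternative. Leaving out an embryo gave 112 to 144 in heart and 136 to 158 in brain. The Pearson correlation over Z was 0.686 for probe sets with a mean level of at least 8 in both tissues and 0.440 to 0.589 with an embryo left out. The median heart-minus-brain difference over Z was -0.11 with arrays centred on autosomes and -0.10 to -0.05 with an embryo left out, and was below 0 in all 13 alternatives. For the 60 values of named genes, 814 of 912 repeats gave the same call, 93 lost it, 5 gained it and none changed sign. A value that was uncalled and stayed so counts as the same call, so losses could fall only on values called in the main fit. Several alternatives, such as the variance trend, the fixed block and the adjusted p alone, leave the size of a difference unchanged. The sign could not change there. The random replicate block changed the call of SDHAF1 in brain alone, and the fixed one added PLCB4, KIAA0232 and CPNE3 among named genes. The cause of these changes was not tested.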

Other observations

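Probe sets with values in only 1 of the 2 tissues are outside the comparison. Z-linked probe sets measured in heart only (66) had a median sex difference of 0.54 (1.45-fold), with 9 called higher in males, and those measured in brain only (116) had 0.57 (1.49-fold), with 11 called. No Z-linked probe set of either kind was called higher in females. The autosomal ones had medians of 0.02 in heart (1790) and 0.04 in brain (2316).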
